A study of Homo sapiens with 2 samples.

Results

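The trefoil factors TFF1, TFF2 and TFF3 and 5 further genes of airway mucous secretion, MUC1, MUC5AC, MUC5B, AGR2 and SPDEF, were examined in mRNA-sequencing profiles of cells labelled A549, an established human lung adenocarcinoma line. They are 8 of the 19198 genes in the deposited tables, and all 8 were listed in both tables. They were chosen by their family and by their measured values in these same libraries, since TFF1 was known to stand high in one library and at the detection limit in the other, so their fold changes are given below as a description, with no test. The comparison is between A549-NICD1 cells, which overexpressed NICD1, the part of NOTCH1 that is cut free inside the cell upon ligand binding and enters the nucleus, and A549-Vector cells, which carried the vector control. The study's methods describe stable lines made by viral infection and antibiotic selection, without saying whether single clones were taken. With 1 library per condition, there were no replicates to set a difference against, and no p-value is given. The comparison asks which genes of the mucous secretion programme differ in level when active NOTCH1 is supplied.

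Trefoil factors are small secreted peptides held together by disulphide bonds between cysteines. They are released with mucus by the lining of the stomach, the gut and the airway, and are known for their part in epithelial repair. The mucus gel itself is built from the gel-forming mucins, of which MUC5AC and MUC5B are the main ones of the airway, while MUC1 is a mucin anchored in the cell membrane. AGR2 is a protein disulphide isomerase of the endoplasmic reticulum that is needed to fold gel-forming mucins, and SPDEF is an ETS-family transcription factor that drives the differentiation of goblet cells, the mucus-secreting cells of the airway. In the airway, Notch signalling is known to steer progenitors between the secretory and the ciliated fates.

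Because trefoil factors and mucins are families of related genes, their transcripts were compared with all others of GENCODE release 29. None of the 100-base windows tested in the transcripts of the 8 genes was found in a transcript of another gene name.

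The authors deposited 1 value per gene and library without naming the unit, and the values had the form of FPKM, fragments per kilobase of gene length scaled to sequencing depth, so that levels can be compared between genes. Whole reads were recovered from the values at a depth of 48528434 reads for A549-NICD1 and 48602848 reads for A549-Vector. For a single gene the reads may be off by a whole-number factor. This leaves the ratio between libraries as it is but changes the width of its interval. Log2 fold changes are A549-NICD1 over A549-Vector on reads plus 0.5 after scaling, and they understate the difference of genes with few reads. Folds are ratios of scaled reads, and intervals are 95% Clopper-Pearson intervals that cover counting error only. NOTCH1 was at 5.40 FPKM in A549-Vector against 2865 FPKM in A549-NICD1, and the log2 fold change was 9.11, in the direction of the labels. A list of 16 A549 marker genes had 9 under 1 FPKM in both libraries, and KRT7, KRT19, FGA and FGB were listed at 0 in both. KRT8, an epithelial keratin, was the highest of the list, at 85.9 and 176 FPKM. A list of 9 markers of HEK293, a line from human embryonic kidney, had 7 at 1 FPKM or more in both, with CDKN2A the highest at 139 and 138 FPKM. The A549 label was thus not borne out by most of these markers in either library, and the cells are called A549 here as labelled.

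TFF1 differed most among the 8 genes. It was at 0.0836 FPKM in A549-Vector, from 2 reads, and at 7.20 FPKM in A549-NICD1, from 172 reads over a length of 492 bases. TFF1 was therefore not absent from A549-Vector, but its value lay under the 0.125 FPKM that 3 reads would give there. The log2 fold change was 6.16 with an interval of 4.61 to 9.54, and the ratio was 89.4-fold with a counting interval of 24.4-fold to 744-fold. With the smallest whole reads that fit both values, 1 in A549-Vector and 86 in A549-NICD1, the interval of the fold ran from 15.6 to 3.57e+03. Bulk libraries cannot tell apart more cells expressing TFF1 from more TFF1 RNA per cell.

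In A549-NICD1, 51.7% of the genes above 0 had a lower FPKM than TFF1, so that it reached the middle of the expression range, while in A549-Vector 9.9% had a lower one. TFF1 ranked 7 by log2 fold change among the 15238 genes with 10 reads or more in either library. Across those genes, 2 had 3 reads or fewer in A549-Vector and at least 100 in A549-NICD1, namely TFF1 and PROK1, and 0 had the reverse pattern. With its smallest whole reads, 86 in A549-NICD1, TFF1 would not be counted here. It was also chosen with these values known, so nothing is read from this count. The TFF1 gene lies at chr21:42362282-42366535 in RefSeq on GRCh38.p14.

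The 2 other trefoil factors showed no reads. TFF2 (chr21:42346357-42350994) and TFF3 (chr21:42311667-42315409) were listed at 0 in both libraries. A count of 0 allows up to 3 reads, which is 0.0839 FPKM in A549-NICD1 for TFF2 over its longest transcript of 737 bases. For TFF3, with a longest transcript of 1109 bases, the same limit was 0.0557 FPKM. TFF1 in A549-NICD1 stood far above both limits, and no fold can be given for TFF2 or TFF3.

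**Figure D1:**
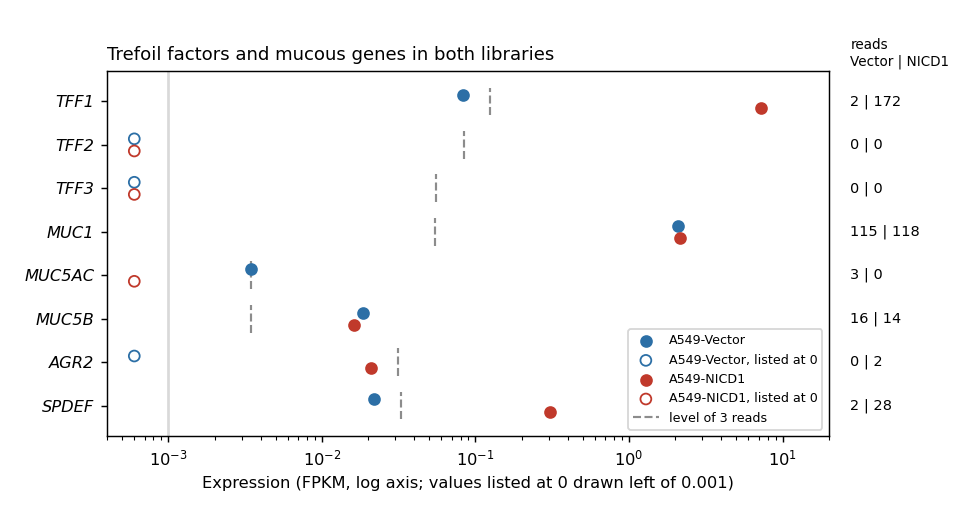
Expression of the 8 genes in FPKM on a log axis, with A549-Vector in blue and A549-NICD1 in red, open circles for values listed at 0, a dashed line at the level of 3 reads, and recovered reads at the right. TFF1 (0.0836 to 7.20 FPKM) and SPDEF (0.0218 to 0.305 FPKM) lie below the dashed line in A549-Vector and above it in A549-NICD1, while the points of MUC1 and MUC5B nearly coincide.

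SPDEF (chr6:34537802-34556329), the goblet cell transcription factor, was the other member with a large difference. It was at 0.0218 FPKM in A549-Vector, from 2 reads, and at 0.305 FPKM in A549-NICD1, from 28 reads. The log2 fold change was 3.57 with an interval of 1.88 to 6.98, and the ratio was 14.5-fold with an interval of 3.67-fold to 126-fold. The level in A549-NICD1 remained low, since 18.7% of the genes above 0 in that library had a lower FPKM than SPDEF. With the smallest whole reads, 1 and 14, the interval of the fold ran from 2.21 to 615. With a pseudocount of 0.1 FPKM in place of 0.5 reads the log2 fold change of SPDEF was 1.78, and with 1 FPKM it was 0.37, while that of TFF1 was 2.97 with 1 FPKM.

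Both TFF1 and SPDEF had a log2 fold change above 2, as did 233 of the 15238 genes with 10 reads or more in either library, which is 1.53%. None of the 8 genes passed that filter with a log2 fold change below -2, as 85 genes or 0.558% did. Because the genes were chosen with these values known, nothing is read from the 2 of 8. Of the 233 genes, 158 had 3 reads or fewer in A549-Vector, and TFF1 and SPDEF were both of this kind. In all, 4 of the 8 genes had at least 10 reads in A549-NICD1 and 2 had them in A549-Vector. TFF1 and SPDEF passed through their reads in A549-NICD1 alone.

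**Figure D2:**
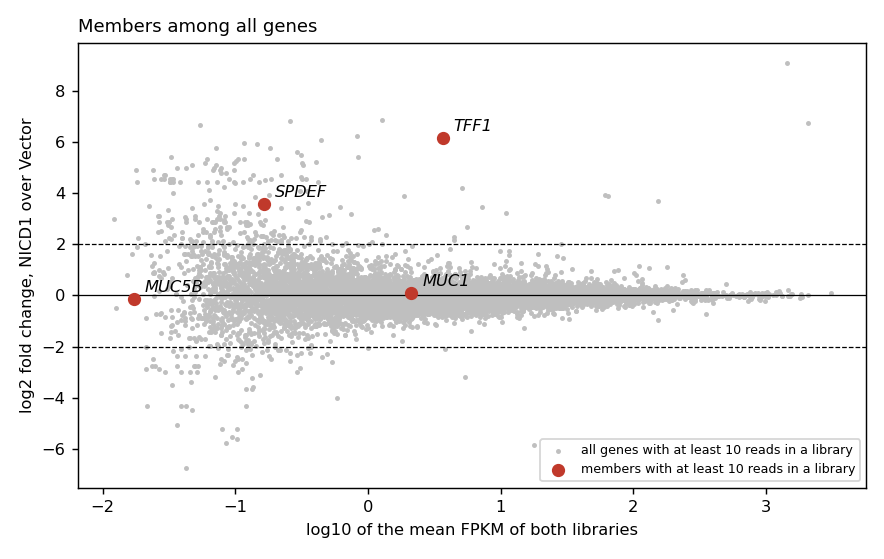
Log2 fold change, A549-NICD1 over A549-Vector, against log10 of the mean FPKM of both libraries, for the 15238 genes with 10 reads or more in either library (grey) and the 4 of the 8 genes that had them (red), with dashed lines at -2 and 2. TFF1 at 6.16 and SPDEF at 3.57 lie above the upper line, while MUC1 and MUC5B lie close to 0.

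None of the 3 mucins among the 8 genes differed beyond counting error. MUC1 (chr1:155185824-155192915) was the only one of the 8 genes at 1 FPKM or more in both libraries, with 2.09 FPKM from 115 reads in A549-Vector against 2.15 FPKM from 118 reads in A549-NICD1. Its log2 fold change of 0.093 had an interval of -0.29 to 0.476, which is 0.818-fold to 1.39-fold. MUC5B (chr11:1223066-1262172), the gel-forming mucin of the airway glands and surface, had few reads for so long a transcript. It was at 0.0184 FPKM from 16 reads in A549-Vector against 0.0161 FPKM from 14 reads in A549-NICD1. Its log2 fold change of -0.13 had an interval of -1.28 to 0.992, so a ratio between 0.411-fold and 1.99-fold could not be told from an equal level at this depth.

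MUC5AC and AGR2 were not measurable at this depth. MUC5AC (chr11:1157953-1201138), the inducible mucin of goblet cells, had 3 reads or 0.00347 FPKM in A549-Vector and was listed at 0 in A549-NICD1. AGR2 (chr7:16791811-16804999), the mucin-folding isomerase, was listed at 0 in A549-Vector and had 2 reads or 0.0210 FPKM in A549-NICD1. Both values were at or under the level of 3 reads, which was 0.00347 FPKM for MUC5AC and 0.0314 FPKM for AGR2. No fold is given for either, and their intervals included 0 on the log2 scale.

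By FPKM in A549-NICD1 the order was TFF1, MUC1, SPDEF, AGR2, MUC5B, and then MUC5AC, TFF2 and TFF3 at 0. In A549-Vector it was MUC1, TFF1, SPDEF, MUC5B, MUC5AC, and then AGR2, TFF2 and TFF3 at 0. Values from 3 reads or fewer cannot be ordered among themselves or against a close value. This holds for TFF1, SPDEF and MUC5AC in A549-Vector and for AGR2 in A549-NICD1. The place of MUC5B below SPDEF in A549-Vector and below AGR2 in A549-NICD1 is therefore not settled.

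The wider mucin family was set beside the members. Of 5 gel-forming mucins, only MUC5B and MUC6 had 10 reads or more in either library. Neither had a log2 fold change beyond 1, as 93.7% of all genes did not. MUC6, a mucin of the stomach glands, was the highest of them, at 0.141 FPKM in A549-Vector against 0.180 FPKM in A549-NICD1, with a log2 fold change of 0.40 and an interval of -0.13 to 0.94. Of 14 membrane-bound and other mucins, 5 had at least 10 reads, 4 of them higher and 1 lower in A549-NICD1, and 2 of these had a log2 fold change above 1, against 4.16% of all genes, while 0 were below -1, against 2.17%. The median over the 5 was 0.37, beside a median of -0.0037 over all genes. MUC4, a large membrane mucin, was at 0.0397 FPKM in A549-Vector against 0.0871 FPKM in A549-NICD1, and the log2 fold change was 1.17. MUC20 had 13 and 29 reads, or 0.103 and 0.231 FPKM, a log2 fold change of 1.18. OVGP1, an oviduct mucin-like glycoprotein and the highest of this list, was at 2.96 and 3.69 FPKM, a log2 fold change of 0.37. MUC3A, a membrane mucin of the intestine named after its values were seen, was the lower one, with 324 reads or 0.571 FPKM in A549-Vector against 236 reads or 0.417 FPKM in A549-NICD1. Its log2 fold change was -0.40 with an interval of -0.65 to -0.155. The levels of MUC4 and MUC20 were below that of MUC1 in both libraries.

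Of 15 transcription factors linked to mucous cells, 12 had at least 10 reads, 7 of them higher and 5 lower in A549-NICD1, with a median log2 fold change of 0.18. SPDEF was the only one above 2, against 1.53% of all genes, and it reached 10 reads in A549-NICD1 alone. KLF4, a zinc-finger factor of differentiating epithelium that is also expressed in goblet cells, was at 2.42 FPKM in A549-Vector against 5.58 FPKM in A549-NICD1, and the log2 fold change was 1.26 with an interval of 1.08 to 1.45. XBP1, which expands the secretory endoplasmic reticulum, was the highest of the list at 55.5 and 81.3 FPKM, a log2 fold change of 0.605. The FOXA factors, which help to open chromatin in endoderm-derived epithelia, were expressed in both libraries. FOXA1 was at 11.5 FPKM in A549-Vector against 8.85 FPKM in A549-NICD1, FOXA2 at 0.860 and 0.537, and FOXA3 at 3.32 and 4.66. They did not move in one direction, with log2 fold changes of -0.32, -0.62 and 0.54, and were named after their values were seen.

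Among 20 products of airway secretory cells, 6 were listed at 0 in both libraries and 6 had at least 10 reads, all under 2 FPKM. Of these 6, 3 had a log2 fold change above 1, against 4.16% of all genes, and 2 below -1, against 2.17%, and the median was 1.32. The 3 above 1 reached 10 reads in A549-NICD1 alone and the 2 below -1 in A549-Vector alone, so that each had to differ to be counted and nothing is read from these counts. Pseudocounts of 0.1 FPKM and 1 FPKM lowered the median to 0.387 and 0.0476. SCGB1A1, the secretoglobin that marks club cells, was listed at 0 in A549-Vector and had 36 reads or 1.64 FPKM in A549-NICD1, which is at least 12.5-fold higher when A549-Vector is set at 3 reads and the reads in A549-NICD1 are taken as exact. Counting error in both libraries allows less, since the interval of the log2 fold change of SCGB1A1 began at 3.27. PIGR, the receptor that carries IgA across the epithelium, had 2 reads in A549-Vector against 11 in A549-NICD1, or 0.00963 and 0.0530 FPKM. Its ratio was 5.72-fold and the interval of its log2 fold change was 0.319 to 5.73. FCGBP, a mucus protein that forms complexes with trefoil factors, had 6 and 23 reads, or 0.00753 and 0.0289 FPKM, a log2 fold change of 1.91 with an interval of 0.657 to 3.58. LYZ and LTF, antibacterial proteins of glandular secretions, were lower in A549-NICD1. LYZ, named after its values were seen, had 31 reads in A549-Vector against 8 in A549-NICD1, for a log2 fold change of -1.83. LTF had 10 reads in A549-Vector and was listed at 0 in A549-NICD1, at least 3.21-fold lower in the same sense, while the interval of its log2 fold change ended at -1.11.

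Enzymes that glycosylate mucins were expressed in both libraries, 13 of 23 at 1 FPKM or more in both, which held for 2 of the 14 membrane-bound and other mucins and for none of the 5 gel-forming ones. Of the 23 enzymes of mucin O-glycosylation, 20 had at least 10 reads, 5 higher and 15 lower in A549-NICD1. Over all genes, 49.4% were higher. The interval lay below 0 for 11 of the 20, against 28.8% of all genes, and above 0 for 2, against 27.8%, and the median log2 fold change was -0.195. With 1 library per condition and no replicates, this is a description of these libraries. GALNT1, which attaches the first sugar to the mucin protein, was the highest, at 42.5 FPKM in A549-Vector against 45.4 FPKM in A549-NICD1. GCNT1, which branches core O-glycans, was at 2.75 FPKM in A549-Vector against 1.29 FPKM in A549-NICD1, and the log2 fold change was -1.04 with an interval of -1.23 to -0.857. GALNT5 was at 0.204 and 0.0962 FPKM, a log2 fold change of -1.02. FUT3, a fucosyltransferase of the Lewis antigens, had 11 reads in A549-Vector against 28 in A549-NICD1, for a log2 fold change of 1.36.

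All 13 genes of mucin granule exocytosis had at least 10 reads, 7 of them higher and 6 lower, with a median log2 fold change of 0.0024. MARCKS, which releases granules from the actin network, was the highest at 55.2 and 60.0 FPKM. SCIN, an actin-severing protein, was the only one of the list beyond 1, at 0.545 FPKM in A549-Vector against 1.13 FPKM in A549-NICD1, and the log2 fold change was 1.10. Over all genes, 4.16% were above 1 and 2.17% below -1. Within the anterior gradient family of AGR2, TXNDC12 was at 30 and 30.4 FPKM.

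Of 10 proteins reported to bind trefoil factors, 6 had at least 10 reads, 2 of them higher and 4 lower, with a median log2 fold change of -0.191. Over all genes, 49.4% were higher. The 2 higher ones, ACKR3 and FCGBP, reached 10 reads in A549-NICD1 alone, so nothing is read from these counts. ACKR3, a chemokine receptor that binds CXCL12, had 1 read in A549-Vector against 33 in A549-NICD1, or 0.00978 and 0.323 FPKM, and its log2 fold change of 4.54 had an interval of 2.52 to 10.4. CXCR4, the signalling receptor of the same chemokine, was the highest of the list at 22.9 FPKM in A549-Vector against 17.2 FPKM in A549-NICD1, and the log2 fold change was -0.36. TFF1 is a classical oestrogen-induced gene, so 14 genes of the oestrogen response were also read. Of 13 with at least 10 reads, 6 were higher and 7 lower in A549-NICD1, and the median log2 fold change was -0.0070. None lay beyond 1, as 93.7% of all genes did not, so these counts are near those of all genes. GATA3 was the highest at 16.9 and 14.8 FPKM. ESR1, which encodes oestrogen receptor alpha, had 25 reads in A549-Vector against 18 in A549-NICD1, or 0.0827 and 0.0597 FPKM. ESR2, which encodes oestrogen receptor beta, was above ESR1 in both libraries, at 1.78 FPKM in A549-Vector against 1.65 FPKM in A549-NICD1. Both receptor genes were named after their values were seen.

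Markers of other epithelial cells were read for the same libraries. The summed level of 7 ciliated cell markers was 7.87 FPKM in A549-Vector against 6.31 FPKM in A549-NICD1. Of the 7, 3 were higher and 4 lower in A549-NICD1, with a median log2 fold change of -0.038. The lower sum came mostly from TPPP3, at 3.61 and 2.74 FPKM, and CAPS, at 2.01 and 1.29 FPKM. FOXJ1 was among the higher ones, with 13 reads in A549-Vector against 20 in A549-NICD1, and its interval included 0. Only DNAI2 lay beyond a log2 fold change of 1, with 2 reads in A549-Vector against 13 in A549-NICD1. DNAI2 reached 10 reads in A549-NICD1 alone, and over all genes 4.16% were above 1 and 2.17% below -1. The sum over 7 alveolar type 2 markers was 15.8 and 12 FPKM, of which ABCA3, a lipid transporter of lamellar bodies, made up 13.7 and 9.72 FPKM, and NAPSA was at 0.411 and 0.809 FPKM. Of the 4 with at least 10 reads, 2 were higher and 2 lower in A549-NICD1. SFTPC was listed at 0 in both libraries, and SFTPA1 and SFTPA2 had 3 reads or fewer in each. For 6 basal cell markers the sum was 5.17 FPKM in A549-Vector against 14 FPKM in A549-NICD1, most of the difference coming from NGFR at 1.55 and 9.56 FPKM. The remaining basal marker with at least 10 reads was DLK2, at 3.62 and 4.43 FPKM. KRT5, KRT14 and KRT15 were listed at 0 in both libraries, and TP63 had 1 read in A549-Vector against 5 in A549-NICD1. For 6 markers of gastric surface mucous cells, which also express TFF1, the sum was 0.459 and 0.376 FPKM, and GKN1 and GKN2 were listed at 0 in both libraries. The part of these cell types in the TFF1 difference was not tested.

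No measured neighbour of TFF1 had a difference of comparable size. TFF2 and TFF3 lie at -15.93 kb and -50.62 kb from it on chromosome 21, measured between the left ends of the genes. Among the 5 listed genes on each side of the cluster, 7 had at least 10 reads, 3 of them higher and 4 lower in A549-NICD1. Their log2 fold changes ran from -0.491 for ABCG1, a sterol transporter, to 0.519 for ZBTB21. None lay beyond 1, as 93.7% of all genes did not. TMPRSS3, a serine protease gene 9.61 kb to the right of TFF1, and UBASH3A were listed at 0 in both libraries. At the chromosome 11 mucin cluster, which holds MUC6, MUC2, MUC5AC and MUC5B, all 10 neighbours had at least 10 reads, with a median log2 fold change of 0.0436. DUSP8, a phosphatase of MAP kinases, was the only neighbour there beyond 1, at 2.46 FPKM in A549-Vector against 5.68 FPKM in A549-NICD1. Among all genes, 4.16% were above 1 and 2.17% below -1.

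**Figure D3:**
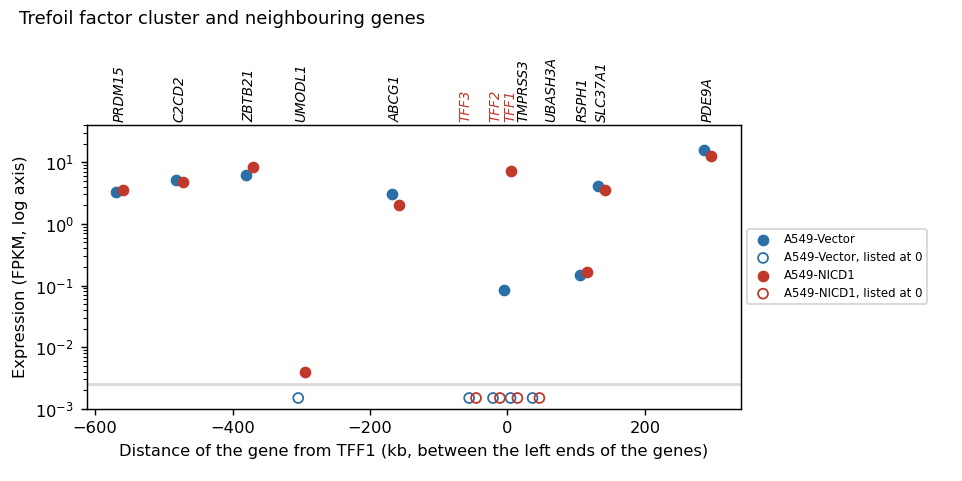
Expression in FPKM on a log axis of the 3 trefoil factors (red names) and the 5 listed genes on each side, against distance from TFF1 in kb, with A549-Vector in blue, A549-NICD1 in red and open circles for values listed at 0. The points of TFF1 lie far apart at 0.0836 and 7.20 FPKM, while those of the 7 neighbours with at least 10 reads lie close together.

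The genes whose pair of values was most like that of TFF1 were found by distance in log2(FPKM + 0.1) over both libraries, among genes with 10 reads or more in either library. In order of distance they were MAGED4, PROK1, SNAI2, KCNA5 and SEMA5B, at 1.34 to 2.20 log2 units. PROK1, a secreted prokineticin, was at 0.0150 FPKM in A549-Vector against 2.55 FPKM in A549-NICD1. SNAI2, a transcription factor of epithelial-mesenchymal transition, was at 0.536 and 9.68 FPKM. The nearest genes to SPDEF were GPR62, FGF6, INSM2, ACKR3 and MOBP, at 0.119 to 0.169 log2 units, all with 1 to 4 reads in A549-Vector. The distances of TFF1 and SPDEF are not comparable, since adding 0.1 FPKM draws values as low as those of SPDEF together. TFF1 was also chosen for its contrast. With only 2 libraries, this likeness is a description of 2 values per gene.

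The promoter of SPDEF is shown because the nuclear partner of NICD1, the DNA-binding protein RBPJ, recognises a core of the letters TGGGAA. RefSeq on GRCh38.p14 gave promoters of 300 bases for 3 of the 8 genes, SPDEF, MUC1 and AGR2. The 250 bases before the start of SPDEF, at chr6:34556330-34556579 on the minus strand, hold these letters 1 time, in capitals below, beginning 24 bases before the start.
SPDEF: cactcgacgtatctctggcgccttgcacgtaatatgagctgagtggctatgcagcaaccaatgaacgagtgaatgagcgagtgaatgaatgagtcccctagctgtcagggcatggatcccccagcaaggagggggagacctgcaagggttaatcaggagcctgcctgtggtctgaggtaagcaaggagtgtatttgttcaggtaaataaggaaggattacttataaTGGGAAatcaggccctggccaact
Searched on both strands as TGGGAA or TTCCCA, the core was found in 24% of 35116 promoters of this length, so 1 match is common. The MUC1 and AGR2 promoters held no match, which says only that these letters are not in those windows. Binding was not measured in these files.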

How the data were processed

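Gene expression was measured by mRNA sequencing of polyA RNA in 1 A549-NICD1 and 1 A549-Vector library, with groups taken from the labels. The authors deposited 1 value per gene, read here as FPKM from the values, since the unit is not given in the sources used here. The submitters' processing notes name Bowtie2, HTSeq and hg38, and whether counting used strand is not given in the sources used here. Of 19225 rows, 27 with a bare number for a name were left out.

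The depth of 48528434 reads for A549-NICD1 and 48602848 for A549-Vector was the largest at which gene lengths came out whole, within 0.01, for 59.6% of 3502 genes. All 17178 genes above 0 then gave whole reads, which summed to 99.2% of each depth. The factor was chosen by GENCODE 29 transcript lengths. Log2 fold changes used reads plus 0.5, with depths scaled by the trimmed mean log ratio (trims of 30% and 5%, factor 0.964). Genes with 10 reads or more in either library were counted. Molecular identifiers are not mentioned in the sources used here, so reads may be copies of one molecule, and intervals and the floor of 3 reads cover counting error only.

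The members and gene lists were chosen with earlier results of these data known. By rule, named genes were the members, up to 4 a list beyond a log2 fold change of 1, and the highest of each list. The 5 genes nearest to TFF1 and to SPDEF, the neighbours of both gene clusters and NOTCH1 were also named by rule. Further list genes were named outside this rule with their values known, among them KRT7, KRT19, FGA, FGB, SFTPC, SFTPA1 and SFTPA2. This also holds for KRT5, KRT14, KRT15, TP63, DLK2, GKN1, GKN2, FOXJ1 and CAPS. Alternatives covered scaling, pseudocount, the filter on low values and the choice of reads. Analyses ran in Python 3.11.15 with numpy 2.4.6, pandas 2.3.3 and scipy 1.17.1, and the steps were tested on simulated reads. Coding sequences of the trefoil factors are not reported here.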

Additional observations from a re-analysis of the deposited data

How the results depend on the processing

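No paired analysis was possible because there was only 1 library for each condition. For the 6 of the 8 genes above 0, 33 of 36 log2 fold changes under an alternative stayed within the counting interval, and the direction of each was kept. The 36 include MUC5AC and AGR2, whose intervals are open at 1 end, so nothing is read from theirs staying within. A larger pseudocount shrinks a fold and can hardly turn its direction, so the kept directions say little there. With a pseudocount of 1 FPKM the log2 fold change of TFF1 was 2.97. That of SPDEF was 0.37, or 1.78 with 0.1 FPKM, because these pseudocounts exceed the value in A549-Vector. Members above 2 then numbered 1 under both pseudocounts and 1 among genes at 1 FPKM or more. Without a filter, 1 member, MUC5AC, lay below -2 and AGR2 lay above 2, each from 3 reads or fewer. All genes above 2 numbered 47 with 0.1 FPKM, 10 with 1 FPKM, 79 with 5 reads, 632 without a filter and 26 at 1 FPKM or more, against 233. Those below -2 numbered 6, 2, 14, 258 and 5, against 85. Of 63 list medians, 61 moved by less than the typical counting error of a single gene in the list. That limit is wide where reads are few, so it says little about how stable a median is. The median of the membrane-bound and other mucins, a list that includes OVGP1, was 0.97 without a filter and 0.0686 with 1 FPKM, against 0.371. That of the secretory products was 3.48 at 1 FPKM or more, 0.387 with 0.1 FPKM and 0.0476 with 1 FPKM, against 1.32. At 1 FPKM or more no gel-forming mucin was left. Scaling by total depth shifted all genes by -0.053. The smallest whole reads were an alternative chosen after seeing the data. Depth limits MUC5AC, AGR2, TFF2 and TFF3 most.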
